A study of Mus musculus with 3 samples.

Results

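Notch1, Notch2 and Notch3 encode receptors, Dll1, Dll4 and Jag1 encode ligands, and Hes1, Hes5, Hey1 and Heyl encode transcriptional repressors that Notch signalling switches on. These 10 genes were taken by their names in the array files, with every probe that was not a control. They were measured by 15 probes, of 41174 distinct probes on the array, and all 15 passed the filter on dim probes. Notch2 had 3 probes, Notch1, Jag1 and Heyl had a pair each, and the other genes had 1 probe each.

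In the Notch pathway, a ligand on one cell binds a receptor on its neighbour, and the receptor is then cut, first by an ADAM protease outside the membrane and then by gamma-secretase within it. The freed intracellular domain enters the nucleus, joins the DNA-binding protein Rbpj and activates Hes and Hey genes. In neural stem cells the Hes factors are known for holding down proneural genes, which keeps the cells undifferentiated. Notch3 and Heyl are also well known in the mural cells of blood vessels, and Dll4 in their endothelium.

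RNA of neural stem cells (NSCs) labelled Dnmt3a-/- (KO, channel Cy3, green) was hybridised together with RNA of NSCs labelled wildtype (WT, channel Cy5, red) on 3 two-colour Agilent arrays, 1 for each biological replicate. Per the labels' protocols, both kinds of cells came from mouse embryonic stem cells by way of neurospheres and grew with EGF and bFGF, and neither a strain nor the number of clones is given. Dnmt3a is a de novo DNA methyltransferase. All arrays carried KO in green and WT in red, so dye and genotype cannot be told apart for a single probe.

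Each value below is a log2 ratio of the RNA labelled KO over the RNA labelled WT, so 1 step is a doubling, and errors are SDs over 3 arrays. A probe was called higher or lower where limma's adjusted p, over all 26626 tested probes, was under 0.05. Dnmt3a itself went against its label, since its 3 probes were higher in the RNA labelled KO by 0.99 ± 0.08, 0.76 ± 0.04 and 0.61 ± 0.03. Which exons the deletion removed is not stated, and a probe outside them checks nothing. Every direction below is therefore one between labelled channels. Of 11 neural stem cell and radial glia markers, Nes and Sox2 among them, all 11 exceeded background by the scanner's mark on every array, for KO and for WT RNA. Of these, 8 were lower and 2 were higher, against 24.8% and 21.9% of all genes by their brightest tested probe. Sox9 was at -1.19, Olig2 at -0.63 and Sox2 at -0.36, while Pax6 was at 0.24 and Prom1 at 0.14. The summed intensity of the 11 markers was 56973 to 58358 for KO and 67780 to 70823 for WT RNA. Most of it came from Vim, with a log2 intensity of 15.04 for KO and 15.25 for WT, and Fabp7, with 13.93 and 14.19. Of 6 embryonic stem cell markers, Nanog and Zfp42 were above background in neither channel on any array, while Utf1 and Dppa5a, which was higher at 0.17, were above it in both on every array.

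The first 30 bases of some of the 60-base probes are shown because the largest ratios rest on them.
Notch3 A_51_P220162: gcctaatagaaatgtttttaggctgttttt
Dll4 A_51_P384402: tttgcccagactccatcctcacagctgggc
Jag1 A_52_P634090: ggagtattctcataagctagttgaatactt
Hey1 A_51_P258409: gatttgggctctaaaagtattgttttacag
Heyl A_51_P339417: actgcagaacagtctcttgacactatgggg
Heyl A_52_P337259: aatcattttcttcaaggtctttgcccttct
On mm7, the build of the files, the Notch3 probe lies on chromosome 17 from 30311822 to 30311881 and the Dll4 probe on chromosome 2 from 119075892 to 119075951. The Jag1 probe lies on chromosome 2 from 136822550 to 136822609 and the Hey1 probe on chromosome 3 from 8669867 to 8669926. The Heyl probes lie on chromosome 4 from 122692891 to 122692950 and from 122694378 to 122694437, with 1427 bases between them. An exon annotation of mm7 was not used here.

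The members moved in both directions. Of the 15 probes, 2 were higher, 8 were lower and 5 were not past the threshold. Among all tested probes 20.7% were higher and 23.6% were lower, 44.3% in all. The median ratio of the 15 probes was -0.10, beside -0.011 for all tested probes, and the median size of the ratio was 0.12, beside 0.093. The values of the KO channel and of the WT channel did not overlap for 10 of the 15 probes, against 43.0% of all tested probes. Target probes had the lowest median, at -0.61 over 5 probes, with ligand probes at -0.11 over 4 and receptor probes at 0.028 over 6. The target median is the value of the Hey1 probe, with Heyl entered by a pair of probes, while Hes1 and Hes5 were at -0.067 and -0.10. Ligand probes ran from -0.33 for Jag1 to 0.37 for Dll4, so neither median describes each gene of its role.

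**Figure D1:**
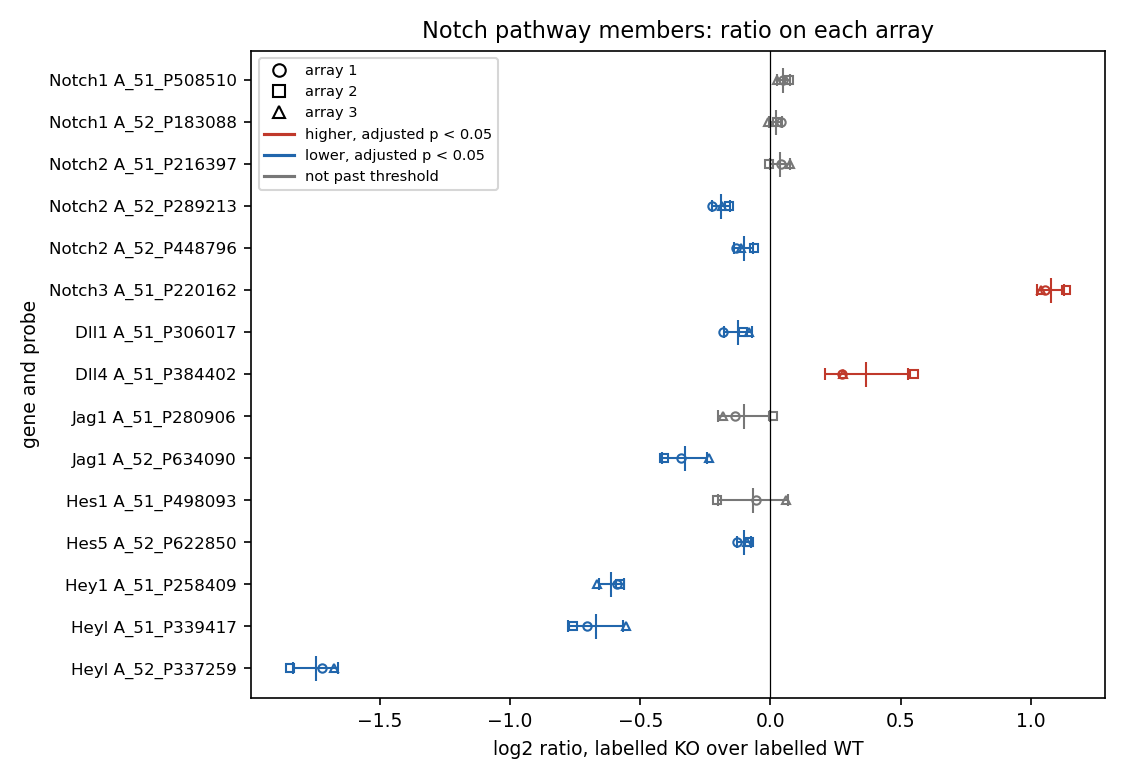
Log2 of the KO over the WT channel (x axis) for each of the 15 probes (y axis); symbols are the 3 arrays, ticks and bars the mean and SD, and colour the call. The Notch3 probe lies between 1.04 and 1.13 on the 3 arrays and the brighter Heyl probe between -1.84 and -1.68, while both Notch1 probes lie near 0.

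Among the receptors, only Notch3 was higher in the RNA labelled KO, and no receptor probe fell by as much as 1.5-fold. Notch3, the receptor known in mural cells and in quiescent stem cells, had normalized log2 intensities of 11.61, 11.76 and 11.45 in the KO channel of arrays 1, 2 and 3. In the WT channel it had 10.55, 10.63 and 10.41. All 3 KO values lay above all 3 WT values. Its ratio was 1.05, 1.13 and 1.04, with a mean of 1.08 ± 0.05 (SD, n = 3; 2.11-fold; limma, adjusted p = 2.7e-07). This was the 83rd highest ratio of the 26626 probes. With each array only centred on its median in place of loess it was 0.62, beside a median of -0.22 over all tested probes, and it was still past the threshold (limma, adjusted p = 0.0031).

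Notch1, the most studied receptor of neural stem cells, did not pass the test. Its brighter probe, which was spotted 10 times on each array, had intensities of 9.36, 9.32 and 9.25 in the KO channel and 9.31, 9.24 and 9.22 in the WT channel. The channels overlapped. The ratio was 0.049 ± 0.024 (limma, adjusted p = 0.27), and the SD between the 10 spots within an array was 0.051 to 0.064. The other Notch1 probe, whose end touches the first on mm7, was at 0.020 ± 0.025 (adjusted p = 0.66). Both turned negative under median centring, at -0.33 and -0.32 against the all-probe median of -0.22, and were then past the threshold.

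Notch2 fell slightly by the brightest of its 3 probes. That probe had 10.97, 11.03 and 11.07 in the KO channel and 11.20, 11.18 and 11.26 in the WT channel, and the channels did not overlap. Its ratio was -0.19 ± 0.03 (limma, adjusted p = 0.0025). A dimmer probe 1011 bases away was at -0.10 ± 0.04 (adjusted p = 0.041), and this call was lost without any 1 of the 3 arrays (adjusted p = 0.064 to 0.17), while with processed signals it was -0.23 and called (0.018). The third and dimmest probe was at 0.037 ± 0.040 and not past the threshold (adjusted p = 0.42).

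The receptors were also set against each other within each array. The ratio of Notch3 exceeded that of Notch1 by 1.03 ± 0.03 and that of Notch2 by 1.27 ± 0.03 (SD, n = 3). Each difference had the same sign on all 3 arrays, and 0.25 is the smallest two-sided p that an exact sign permutation of 3 arrays can give. Levels of different probes were not compared.

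**Figure D2:**
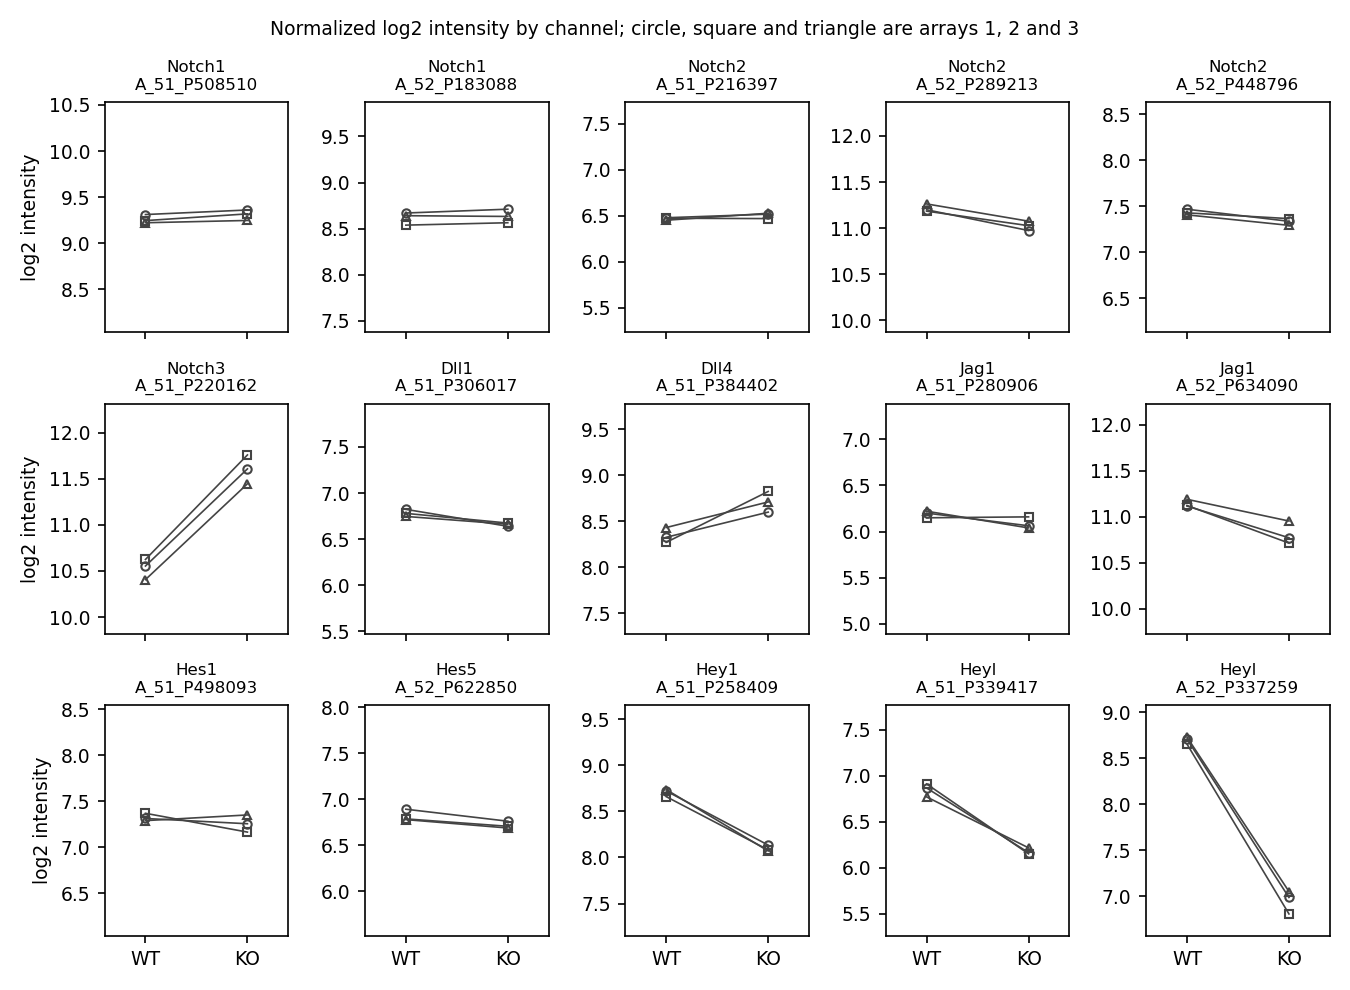
Normalized log2 intensity (y axis, each panel spanning the same range) of the WT and KO channels for each probe, with a line joining the channels of 1 array. Lines rise on all 3 arrays for Notch3 and Dll4, fall on all 3 for Hey1, both Heyl probes and the brighter Jag1 probe, and cross for Hes1.

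The ligands split. Dll4, a ligand of endothelium that is also made by neural precursors, was higher in the RNA labelled KO. It had 8.60, 8.82 and 8.71 in the KO channel and 8.32, 8.27 and 8.43 in the WT channel, without overlap. Its ratio was 0.27, 0.55 and 0.28, with a mean of 0.37 ± 0.16 (1.29-fold; limma, adjusted p = 0.0011), so array 2 was the highest. Without array 2 the call stayed, and with median centring the ratio was 0.044 and the call was lost (adjusted p = 0.75).

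Jag1, a ligand of the Serrate type, fell by its bright probe. That probe had 10.77, 10.71 and 10.95 in the KO channel against 11.12, 11.12 and 11.19 in the WT channel, and the channels did not overlap. The ratio was -0.33 ± 0.09 (1.26-fold lower; limma, adjusted p = 0.00037). The second Jag1 probe, 1449 bases away, was dim, with raw signals of 52.6 to 61.9 in the KO channel over a local background of 39.5 to 42. It was well above background on all 3 arrays in the WT channel and on none in the KO channel, and its ratio of -0.10 ± 0.10 was not past the threshold (limma, adjusted p = 0.09). It was past it without array 2 (-0.16, adjusted p = 0.018), with the scanner's processed signals (-0.64, 0.032) and with the authors' deposited table (-0.64, 0.029).

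Dll1, the Delta ligand of neural progenitors, was dim. Its probe, spotted 10 times per array, had 6.64, 6.67 and 6.66 in the KO channel and 6.82, 6.78 and 6.75 in the WT channel. The channels did not overlap, yet the ratio was only -0.12 ± 0.05 (1.09-fold lower; limma, adjusted p = 0.023). The call was lost in 5 of 11 other settings. These were without array 1 (adjusted p = 0.081), without array 3 (0.056) and in an unpaired fit of the channels (0.057). The others were normexp fitted on all spots (-0.020, 0.26) and median centring (-0.17, 0.080). With processed signals the ratio was -0.32 (0.031). The ratio of Dll4 exceeded that of Dll1 by 0.46, 0.66 and 0.36, and that of Jag1's bright probe by 0.62, 0.96 and 0.51 (exact sign permutation, two-sided p = 0.25 for each, the smallest possible).

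Among the targets, the Hey genes fell, Hes5 fell by less and Hes1 did not pass the threshold. Heyl, a Hey-family repressor, had the largest difference of all members. By its brighter probe it had 6.99, 6.81 and 7.05 in the KO channel and 8.71, 8.65 and 8.73 in the WT channel, far from overlap. The ratio was -1.72, -1.84 and -1.68, with a mean of -1.75 ± 0.09 (3.36-fold lower; limma, adjusted p = 5.3e-08). This was the 21st lowest ratio of the 26626 tested probes.

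The second Heyl probe was dimmer and less separated. It was above background in the KO channel on no array, with raw signals of 56.2 to 63.3 over a background of 39 to 43.5, and in the WT channel on all 3. The KO channel gave 6.16, 6.15 and 6.22 and the WT channel 6.87, 6.91 and 6.77, so its level in the RNA labelled KO was not resolved from background. The ratio by this probe was -0.67 ± 0.11 (1.59-fold lower; limma, adjusted p = 1.1e-05). It is not a lower bound, since it depends on the background treatment. The ratios of the probes differed by 1.08 ± 0.05 within arrays.

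The size of the Heyl difference depended on how background was treated. The brighter probe was at -0.56 with normexp fitted on all spots, at -2.22 with an offset of 10 in place of 50 and at -2.47 with the scanner's processed signals. The dimmer one was at -0.087, -1.28 and -2.27 under these settings, and its call was lost in the first (limma, adjusted p = 0.056).

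Hey1, another repressor of this family, was lower on every array. It had 8.13, 8.08 and 8.07 in the KO channel and 8.72, 8.66 and 8.74 in the WT channel. No KO value reached a WT value. The ratio was -0.61 ± 0.05 (1.53-fold lower; limma, adjusted p = 5.3e-06). It was -0.28 and still past the threshold when normexp used every spot for its fit (adjusted p = 0.031). Hey1 and both Heyl probes were 3 of the 15 probes that were called and at least 1.5-fold lower, against 1.62% of all tested probes.

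Hes5, the Hes gene most closely tied to Notch activity in neural stem cells, was dim. It had 6.76, 6.71 and 6.69 in the KO channel and 6.89, 6.79 and 6.78 in the WT channel. The 3 KO values lay below the 3 WT values by a narrow margin. The ratio was -0.10 ± 0.03 (1.07-fold lower; limma, adjusted p = 0.04), and the call was lost without any 1 array (adjusted p = 0.095 to 0.13). It was also lost with normexp fitted on all spots (-0.016, adjusted p = 0.28) and with median centring (-0.16, 0.087), and in 7 of 11 other settings in all. With processed signals, which carry no offset of 50, Hes5 was at -0.35 and called (adjusted p = 0.015). Hes1, a repressor with oscillating expression in progenitors, had 7.25, 7.16 and 7.35 in the KO channel and 7.31, 7.37 and 7.29 in the WT channel, and these overlapped. Its ratio changed sign between arrays, at -0.057, -0.20 and 0.061, with a mean of -0.067 ± 0.133 (adjusted p = 0.32). With median centring Hes1 was at -0.24 and called lower (adjusted p = 0.036), against the all-probe median of -0.22. The Hes1 probe spans 296 bases of chromosome 16 on mm7 although it is 60 bases long, so its ends are not contiguous in the genome.

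Within arrays, the ratio of Heyl minus that of Hes5 was -1.59, -1.76 and -1.58, and minus that of Hes1 it was -1.66, -1.64 and -1.74. For Hey1 the difference was -0.46, -0.50 and -0.58 from Hes5 and -0.53, -0.37 and -0.73 from Hes1. Each gene pair kept its sign on all 3 arrays, and the exact sign permutation gave a two-sided p = 0.25 for each pair of genes, the smallest it can give.

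**Figure D3:**
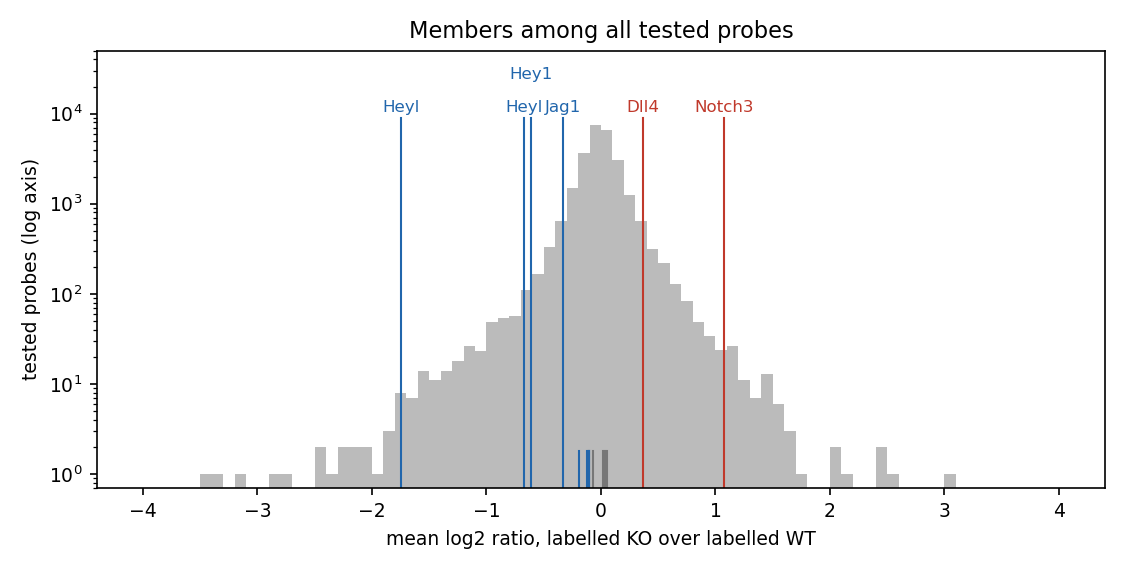
Number of tested probes (y axis, log scale) by mean log2 ratio (x axis), with the members at their ratios: tall lines are members beyond 0.3 in size, named at the top, and short lines the rest. The brighter Heyl probe at -1.75 and Notch3 at 1.08 stand in the thin tails, while 9 of the 15 probes lie in the dense centre.

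Notch3 and Heyl are also mural cell genes, and Dll4 an endothelial one, so markers of those cells were read beside them. Of 9 mural markers, 8 exceeded background for both RNAs on every array. Of the 9, 4 were higher and 3 were lower, against 21.9% and 24.8% of all genes by their brightest tested probe. The potassium channel gene Kcnj8 was at 0.60, Tagln and Anpep at 0.28, and Myh11 at 0.11, while Pdgfrb was at -0.36, Rgs5 at -0.15 and desmin (Des) at -1.19. The summed normalized intensity of the mural list was 23092 to 24048 in the KO channel and 24656 to 26708 in the WT channel. Most of it came from Pdgfrb, with a log2 intensity of 13.53 for KO and 13.89 for WT. Acta2 was next, with 12.70 and 12.63, and was not past the threshold. The mural markers went both ways.

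Of 9 endothelial markers, 5 exceeded background for both RNAs on every array. Emcn alone passed the threshold, higher at 0.21, and 0 were lower, against 21.9% and 24.8% of all genes by their brightest tested probe. Kdr at -0.078, Tek at -0.015, Cldn5 at 0.013, Esam at 0.037 and Vwf at 0.013 were not past the threshold. Pecam1, Cdh5 and Tie1 were above background in neither channel on any array and were not tested. The summed intensity was 6745 to 7283 in the KO channel and 5886 to 6286 in the WT channel. This sum is mostly Emcn, whose log2 intensity was 12.61 for KO and 12.40 for WT, with Kdr next at 7.43 and 7.51. Of 7 neuronal markers, Dcx at -0.53 and Tubb3 at -0.23 were lower and 0 were higher, against 24.8% and 21.9% of all genes. Map2 at 0.072, Snap25 at 0.037 and Rbfox3 at 0.013 were not past the threshold, and Stmn2 and Syp were not tested. The part of neural stem cell and neuronal markers in the Hey1 and Heyl results was not tested. The part of mural cells in the Notch3 and Heyl results, and of endothelial cells in the Dll4 result, was not tested. In bulk RNA, fewer cells of a type and less RNA per cell cannot be told apart.

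The other 67 genes listed for the pathway went both ways in near-background shares. All had a probe, and 58 passed the filter on dim probes. Of these, 13 were higher, 15 were lower and 30 were not past the threshold by their brightest probe, against 21.9% of all genes higher and 24.8% lower, 46.8% in all. Their median ratio was -0.016, beside -0.011 for all 18033 genes.

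**Figure D4:**
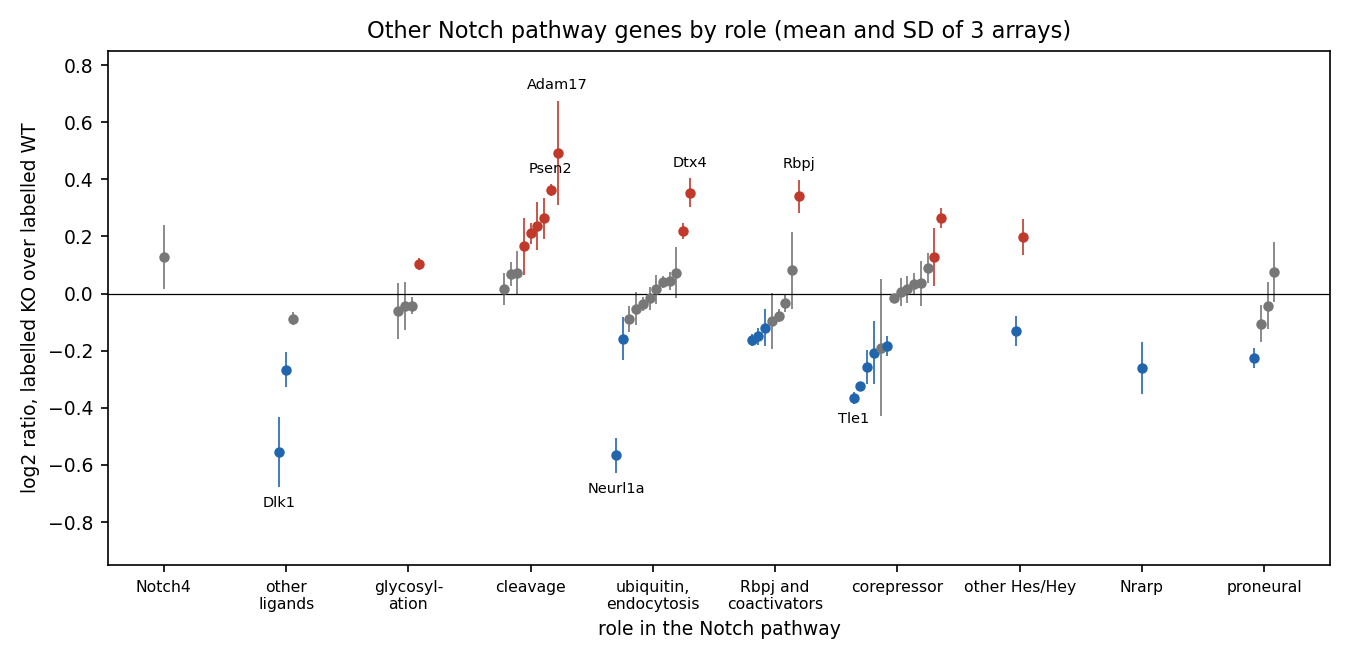
Log2 of the KO over the WT channel (y axis) for the 58 tested genes of the wider pathway, by role (x axis); points and bars are the mean and SD of 3 arrays, red is higher, blue lower and grey not past the threshold. All 9 cleavage genes sit above 0 (2 of them with median centring), the lowest genes are Dlk1 and Neurl1a, and in the other roles with at least 4 genes points lie on both sides of 0.

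Genes for receptor cleavage were called in 1 direction only, higher. Of 9 tested, 6 were higher and 0 were lower by limma, against 21.9% and 24.8% of all genes by their brightest tested probe. The lower count was also 0 at an unadjusted p under 0.05, and 0 under each of the other settings but median centring. The median of the 9 genes was 0.21. Adam17, a protease that sheds many membrane proteins, was at 0.68, 0.48 and 0.31, with a mean of 0.49 ± 0.18 (limma, adjusted p = 0.00038). Its call was lost with normexp fitted on all spots (0.31, adjusted p = 0.08), where 4 of the 9 genes were higher. Psen2, a catalytic subunit of gamma-secretase, was at 0.36 ± 0.02, Furin, which processes the receptor precursor, at 0.26 ± 0.07, Psenen at 0.24 ± 0.08, Aph1b at 0.21 ± 0.04 and Aph1a at 0.17 ± 0.10. The other Aph1a probe, at 0.0035 ± 0.0876, was not past the threshold. Of the other Aph1b probes, A_52_P142191 was higher at 0.22 ± 0.04, while A_52_P456750, at 0.067 ± 0.095, was not past the threshold. Adam10 and Ncstn, at 0.071 and 0.067, were not past the threshold. With median centring the median of this role was -0.12, against -0.22 for all tested probes, and 0 of the 9 were higher and 1 was lower.

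Rbpj, the DNA-binding partner of the cut receptor, was at 0.30, 0.32 and 0.41, with a mean of 0.34 ± 0.06 (limma, adjusted p = 0.00016). It was at -0.11 and not called with median centring, against the all-probe median of -0.22. Its coactivators Maml1 at -0.16 ± 0.02, Maml2 at -0.12 ± 0.06 and Snw1 at -0.15 ± 0.03 were lower, though another Maml2 probe was higher at 0.18 ± 0.04. Another Snw1 probe, at 0.036 ± 0.111, was not past the threshold.

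Corepressor genes were lower in 5 and higher in 2 of 14, against 24.8% and 21.9% of all genes. The Groucho-type genes Tle1 at -0.36 ± 0.02 and Tle4 at -0.26 ± 0.06, whose products Hes factors recruit, were lower. So were Ctbp1 at -0.21 ± 0.11 and Ctbp2 at -0.18 ± 0.03, though another Ctbp2 probe, at -0.012 ± 0.108, was not past the threshold. The deacetylase gene Hdac1 at 0.27 ± 0.03 and the demethylase gene Kdm5a at 0.13 ± 0.10 were higher.

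Of the genes that tag or move ligands and receptors, 2 of 12 were higher, 2 were lower and 8 were not past the threshold. Of all genes, 21.9% were higher and 24.8% were lower. Neurl1a, a ubiquitin ligase acting on ligands, was at -0.57 ± 0.06 (limma, adjusted p = 1.0e-05), and its other probe was at -0.14 ± 0.02. Dtx4, of the Deltex ligases, was at 0.35 ± 0.05 and turned to -0.13, not called, with median centring. Numb, which restrains Notch, was at -0.088 ± 0.046 (adjusted p = 0.076), and Lfng, a sugar transferase that tunes ligand choice, was at -0.061 ± 0.097 (adjusted p = 0.28). With processed signals and with the authors' deposited table Lfng was at -0.52 and past the threshold (adjusted p = 0.032 and 0.026).

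Among the remaining ligands and receptors, Dlk1, a noncanonical ligand, was at -0.55 ± 0.12 (limma, adjusted p = 4.9e-05) and at -0.85 ± 0.07 by its other probe. Dll3, which acts within the cell, was at -0.27 ± 0.06 (adjusted p = 0.00065). It was at -0.039 and not called with normexp fitted on all spots (adjusted p = 0.053), and at -0.69 with processed signals. Notch4 was at 0.13 ± 0.11 (adjusted p = 0.054), and passed the threshold without array 2 (0.035). Jag2 and Hey2 were above background in neither channel on any array and were not tested.

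Of the other listed targets and Hes genes that were tested, Nrarp and Hes2 were lower and Hes6 was higher. Nrarp, a direct target that dampens Notch, was above background in the WT channel only, and its ratio was -0.26 ± 0.09 (limma, adjusted p = 0.0014). Its size depended on the background treatment, from -0.027 with normexp fitted on all spots, where the call was lost, to -0.60 at an offset of 10 and -1.49 with processed signals. Under median centring Nrarp was at -0.14 and not called (adjusted p = 0.16). Hes2 was at -0.13 ± 0.05 (limma, adjusted p = 0.019), and its other probe, at -0.024 ± 0.114, was not past the threshold. Hes6, which opposes Hes1, was at 0.20 ± 0.06 (limma, adjusted p = 0.0033) and at -0.21, not called, with median centring. The other Hes6 probe, at 0.10 ± 0.12, was not past the threshold.

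Promoter windows were available from RefSeq (GRCm38.p6) for 7 of the 10 members, in 8 windows of 300 bases that run from 250 bases before the gene's start to 50 after it. They held 15 to 41 CpG sites, the sites that DNA methyltransferases act on, against a median of 7 and an upper quartile of 20 over 32851 windows. Hes1, Hey1 and Heyl had no window, so Hes5 was the only target gene searched. Among the 8 windows, the Rbpj motif GTGGGAA, searched on both strands, was found in that of Hes5 alone. It occurs there at 226 and at 83 bases before the start. It is in 6.38% of all windows, and 0.256% hold at least 2. The N-box CACAAG was found in the Notch1 and Notch3 windows and in 15.5% of all. The class C site CACGCG was found in the windows of Notch2, Dll4, Jag1 and, at 1 of its starts, Dll1, and in 9.27% of all.

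The upstream 250 bases of Hes5 are shown as the window with paired Rbpj motifs, and those of Notch3 as that of the member with the highest ratio. Capitals mark GTGGGAA in Hes5 and CACAAG in Notch3, each on either strand, and both are written 5′ to 3′ on the strand of the gene. Hes5 lies at chr4:154960673-154960922 on the plus strand and Notch3 at chr17:32166891-32167140 on the minus strand.
Hes5: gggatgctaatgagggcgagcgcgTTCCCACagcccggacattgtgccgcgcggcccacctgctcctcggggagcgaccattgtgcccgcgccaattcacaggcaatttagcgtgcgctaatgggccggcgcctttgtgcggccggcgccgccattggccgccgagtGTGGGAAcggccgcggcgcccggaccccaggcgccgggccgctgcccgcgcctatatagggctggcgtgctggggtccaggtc
Notch3: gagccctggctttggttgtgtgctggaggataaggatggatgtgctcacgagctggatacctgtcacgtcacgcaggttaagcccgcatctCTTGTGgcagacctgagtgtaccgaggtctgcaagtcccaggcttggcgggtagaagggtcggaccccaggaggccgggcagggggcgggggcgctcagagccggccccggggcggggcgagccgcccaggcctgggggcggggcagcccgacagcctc
These stretches hold 32 CpG sites in Hes5 and 17 in Notch3. Hes5, with paired Rbpj motifs, had a ratio of -0.10 ± 0.03, and Notch3, with none in its window, one of 1.08 ± 0.05. A match is a description of letters and shows no binding, and DNA methylation was not measured in these samples.

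**Figure D5:**
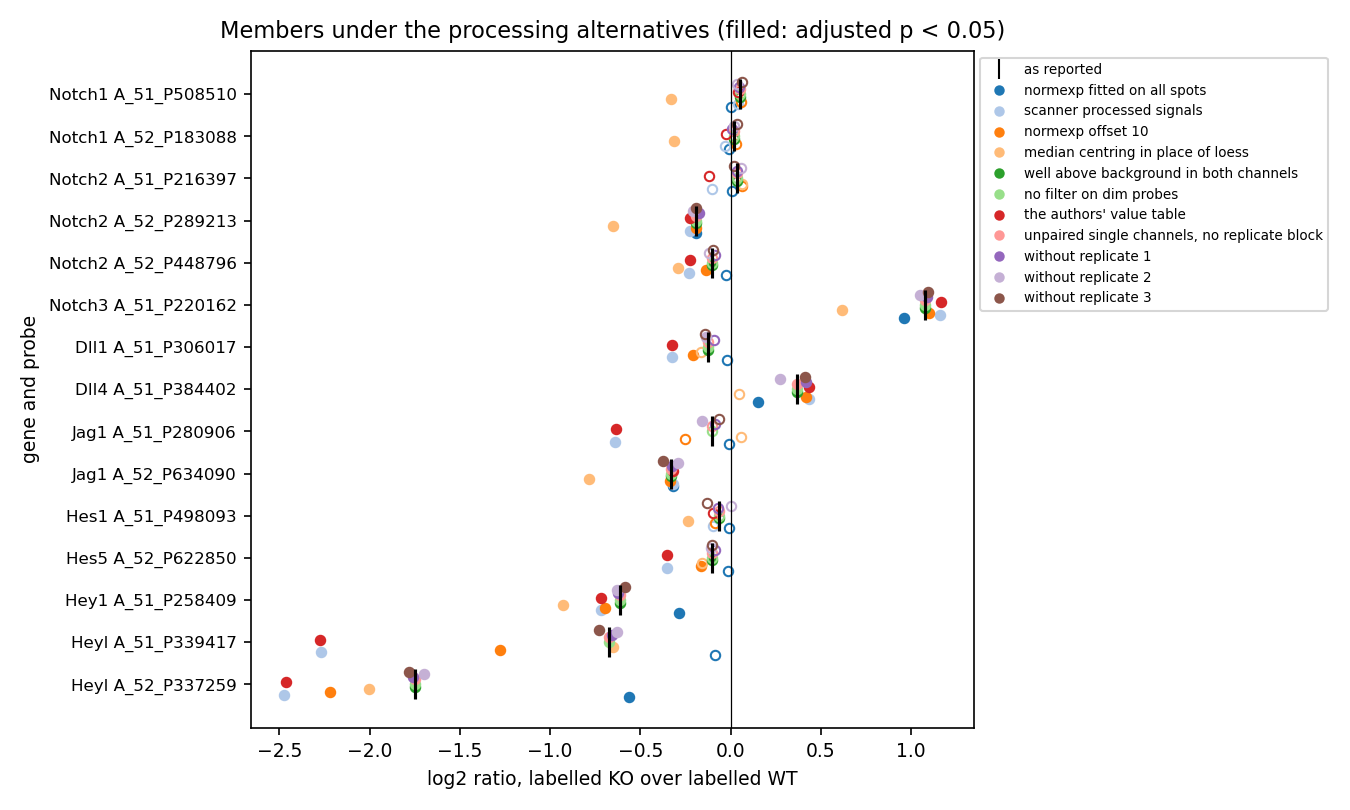
Log2 of the KO over the WT channel (x axis) for each of the 15 probes (y axis) under 11 other ways of processing, by colour; the black tick is the value reported and filled points are past the threshold. Notch3 stays above 0 and Hey1, the brighter Heyl and Jag1 probes and the brightest Notch2 probe stay below 0, all past the threshold, at every point drawn, while Heyl's points spread the widest.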

How the data were processed

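Total RNA of NSCs labelled KO and WT was measured on 3 two-colour arrays. Per the file headers, the deposited spot and background intensity values and the processed signals come from Agilent's Feature Extraction software, version 9.5.3.1. Its deposited log10 ratio sets red over green and served only as a check. The authors' deposited value table was taken to hold log2 values of KO over WT, since it correlated with the scanner's ratio so turned at r = 0.992 to 0.998, with column medians of 0.0276. Its centring is unknown. The deposited 0 or 1 marks per spot, such as well above background, come from the scanner software per the file headers and carry no other unit.

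Background was corrected with normexp (limma 3.58.1, R 4.3.3, offset 50) fitted on spots without outlier marks, a choice made with results known. Fitted on all spots, the estimated background mean fell to between -489 and -167, against -4.66 to 1.04. Ratios were loess-normalized within arrays, with controls at weight 0, and averaged over a probe's unmarked spots. The offset draws dim ratios toward 0. Channel intensities were read after Aquantile normalization between arrays. Tests took probes well above background in at least 1 channel on all 3 arrays, which left 26626 probes and 18033 genes, each represented by its brightest probe. Per array, 63.6% to 65.0% of probes were above background in the KO channel and 65.5% to 68.8% in the WT channel, and precision is limited by there being 3 arrays.

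The mean ratio was tested against 0 with limma (lmFit, eBayes, 2 residual degrees of freedom, Benjamini-Hochberg over all tested probes). The pairing of KO and WT comes from their shared array. The p-values measure only the spread between these samples. Of 41174 probes, 22951 were named by accession, 6659 by symbol and 3109 by synonym, and 8455 kept the file's name.

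All 15 member probes were named. Of the other pathway genes, those past the threshold with a ratio of at least 0.3 in size were named, with Rbpj, Nrarp, Dll3, Jag2, Notch4, Hes6, Hey2, Numb and Lfng; some genes this rule covers are not reported here. Smaller called genes and genes not past the threshold were named by role after their values were seen. The members and lists were chosen with earlier results of these data known.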

Additional observations from a re-analysis of the deposited data

How the results depend on the processing

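The member counts of 2 probes higher and 8 lower became 2 and 4 with normexp fitted on all spots, 1 and 9 with median centring, and 2 and 5 in an unpaired fit of the channels (no replicate block). Leaving out 1 array gave 2 higher each time and 5 to 7 lower, with 5 without replicate 1 and without replicate 3. Of the pathway genes, 13 higher and 15 lower became 8 and 9 with normexp fitted on all spots and 0 and 34 with median centring, where limma's unadjusted p under 0.05 also gave 0 higher. Leaving out 1 array gave 10 to 13 higher and 13 to 15 lower. Over all tested probes, 5518 higher and 6285 lower became 2690 and 3670 with normexp fitted on all spots, 3675 and 4096 unpaired, and 1168 and 13081 with median centring, where the all-probe median was -0.22.

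Ratios that changed sign did so mostly with median centring: Notch1 to -0.33 and -0.32 by its probes, Notch4 to -0.27, Hes6 to -0.21, Dtx4 to -0.13, Rbpj to -0.11, Psen2 to -0.054, Lfng to 0.015 and the dim Jag1 probe to 0.056. The dimmest Notch2 probe turned to -0.10 with the scanner's processed signals and -0.12 with the authors' values. The dimmer Notch1 probe turned to -0.0065 with normexp fitted on all spots, -0.032 with processed signals and -0.025 with the authors' values, and Hes1 to 0.0022 without replicate 2. Of these, the Notch1 probes and Notch4 were past the threshold once turned.

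The cause of these shifts was not tested. Depth limits dim probes: the second probes of Jag1 and Heyl, and Nrarp, were not above background in the KO channel.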
